A study of Mus musculus with 13 samples.

Results

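Transporters that move amino acids across cell and organelle membranes were examined in mammary tumours and wild-type mammary glands of the mouse. The genes were chosen by symbol, as all members of the solute carrier families Slc1, Slc3, Slc6, Slc7, Slc36, Slc38 and Slc43 with a plain numeric suffix, together with Slc25a22 and Slc66a1. This gave 61 of the 38279 symbols in the count table. Of these, 60 matched by the symbol itself, and Slc66a1 was found under its earlier symbol Pqlc2, which RefSeq lists as a synonym. A few of the genes carry other cargo: Slc6a2, Slc6a3 and Slc6a4 move monoamines, Slc6a8 creatine, Slc6a6 taurine and Slc43a3 purine bases.

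The tumours (6 libraries) came from Cre-positive mice, in which mating at 12 weeks of age was used to trigger excision of Fbxw7, the gene for a substrate-binding subunit of a ubiquitin ligase. The glands (4 libraries) were whole mammary tissue of Cre-negative mice that were mated at the same age. Glands 1 to 3 came from animals aged 20 weeks and gland 4 from an animal aged 40 weeks, and tumours 1 to 6 came from animals aged 25, 32, 39, 19, 53 and 25 weeks. The labels name neither the promoter that drives Cre nor the strain, and for the tumours they give no genotype beyond Cre status. Tumour and gland differ in genotype and tissue state together, and these cannot be told apart. Their ages differ but overlap, with gland 4 the only gland older than 20 weeks, and a fit with age as a covariate is given below. In such bulk tissue fewer cells of a type and less RNA per cell cannot be told apart either.

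Amino acid transporters fall into a few working types. Exchangers swap one amino acid for another, sodium-coupled carriers of the Slc1, Slc6 and Slc38 families concentrate them inside the cell, and facilitators of the Slc43 family let neutral amino acids move down their gradient. Most Slc7 proteins are light chains that reach the membrane only when bound to a glycoprotein heavy chain, Slc3a2 or Slc3a1, while the cationic members of that family work alone. In the mammary gland the epithelium takes up amino acids for milk protein, and fat cells, which fill most of a resting gland, carry a set of their own.

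The libraries held 13723065 to 48353114 counts, and the transporter genes took 0.0440% to 0.606% of them. Levels below are CPM, that is counts relative to library size, scaled between libraries by the trimmed mean of M-values (TMM). Fbxw7 itself was at 14.3, 17.8, 18.4 and 83.6 CPM in glands 1 to 4 and 15.1 to 47.3 CPM in tumours, and all tumours lay within the range of the glands (log2 difference -0.12 ± 0.51, adjusted p = 0.888). Counts over a whole gene do not show whether some of its exons were excised, so this does not check the genotype labels, and all directions below are those of libraries labelled tumour and gland. The tissue labels were checked with marker lists. Summed luminal epithelial markers lay at 458 to 766 CPM in glands and 1752 to 4084 CPM in tumours, and summed fat cell markers at 7944 to 42130 CPM in glands and 27.9 to 1576 CPM in tumours, with no marker of either list at 0 in a whole group. Salivary gland markers made up 51.5% of the reads in tumour 1 and 19.3% in tumour 6, and at most 0.0393% in any other tumour. Gland 4 held 37.5% mitochondrial transcripts and 8.34% skeletal muscle markers, so results that rest on these 3 libraries are also given without them.

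Of the 61 genes, 44 had enough counts to be tested. In tumours 7 rose (Slc6a14, Slc6a15, Slc38a6, Slc1a1, Slc1a4, Slc7a5 and Slc38a2) and 7 fell (Slc7a10, Slc38a4, Slc36a2, Slc1a5, Slc25a22, Slc7a2 and Slc38a10), each at an adjusted p below 0.05 in a quasi-likelihood test of edgeR over 20101 genes. The 14 genes were 31.8% of those tested, where 15.1% of all tested genes passed (6.89% higher and 8.19% lower). The median log2 fold change of the 44 was 0.17, as it was over all genes tested (0.17). In 12 of the 44 genes (27.3%) the tumours and glands did not overlap, against 14% of all tested genes (6.54% with every tumour above and 7.5% with every tumour below). Without tumours 1 and 6 the counts were 6 higher and 8 lower (21.7% of all tested genes passed), and without gland 4 as well they were 7 and 13 (22.1%). When a single library was left out, 3 to 7 genes passed as higher and 3 to 7 as lower. The counts were 3 and 3 without gland 1, where 4.99% of all tested genes passed, 4 and 4 without gland 2 (7.18%) and 3 and 5 without gland 3 (8.46%). They were 7 and 4 without tumour 4 (9.42%) and 6 and 4 without tumour 5 (12.8%).

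**Figure D1:**
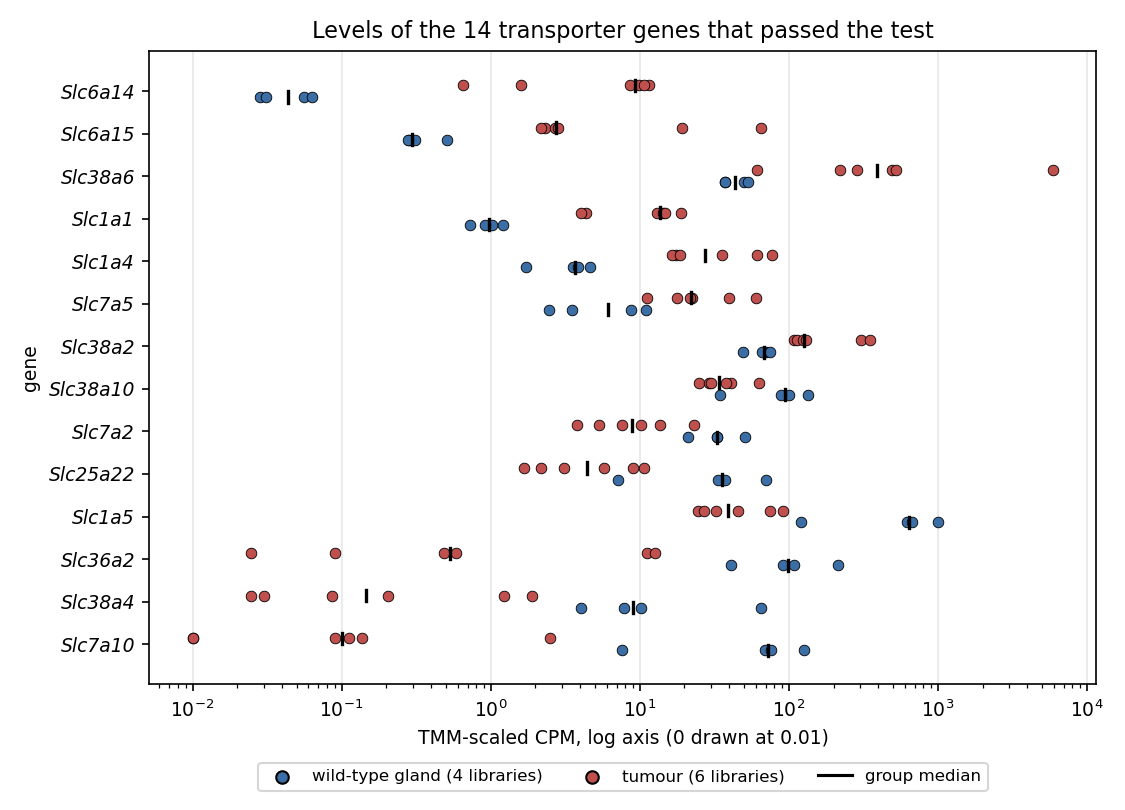
TMM-scaled CPM on a log axis for the 14 transporter genes that passed the test, 1 point per library, with 4 glands in blue, 6 tumours in red and a black bar at each group's median. Values of 0 (Slc7a10 in tumours 3 and 4) are drawn at 0.01. The groups overlap only for Slc38a10, Slc7a2 and Slc25a22.

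**Figure D2:**
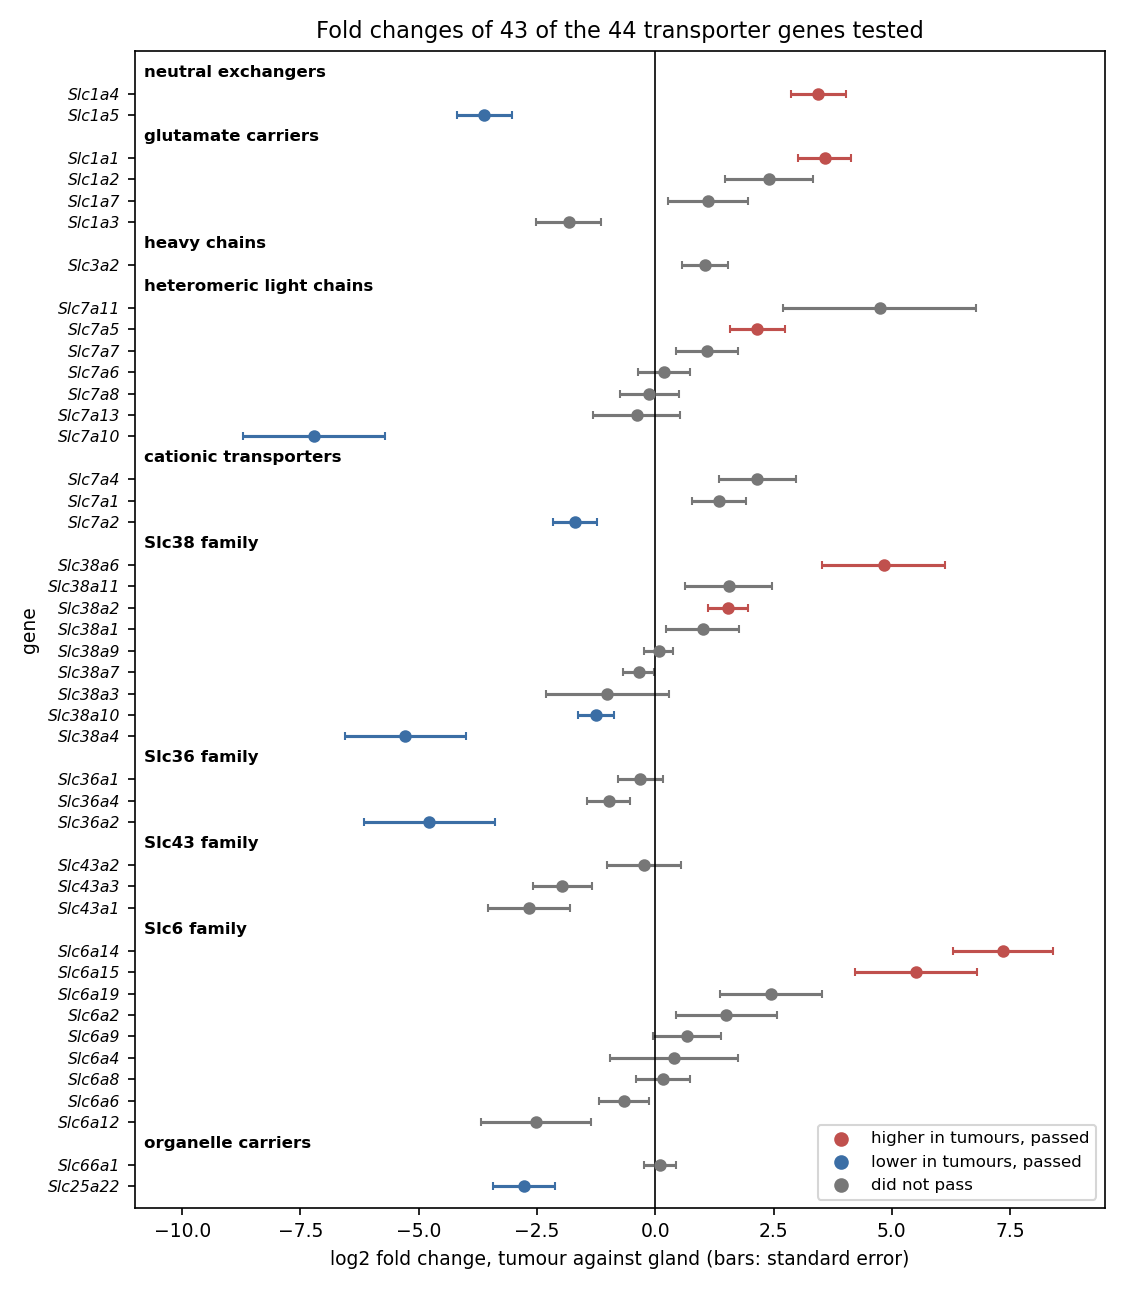
Log2 fold change of tumour against gland with its standard error for 43 of the 44 genes tested, grouped by role, with genes that passed in red (higher) or blue (lower) and the others in grey. The light chains, the Slc38 family and the Slc6 family hold genes on both sides of 0, while all tested Slc36 and Slc43 genes lie below 0.

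The neutral amino acid exchangers Slc1a4 and Slc1a5 moved in opposite directions. Slc1a5 encodes ASCT2, a sodium-dependent exchanger known for glutamine uptake, and its levels were 1011, 620, 670 and 121 CPM in glands 1 to 4. In the tumours it ranged from 24.6 to 92.2 CPM with a median of 39.2 CPM. All 6 tumours lay below every gland, and on the log2 scale the gene changed by -3.61 ± 0.58 (standard error, SE, as for each such value below; adjusted p = 0.00523). Slc1a4 encodes ASCT1, which exchanges alanine, serine and cysteine. It was at 4.68, 3.56, 3.84 and 1.72 CPM in glands 1 to 4, and from 16.4 to 77.2 CPM in the tumours, with a median of 27.3 CPM. All 6 tumours lay above every gland (log2 fold change 3.45 ± 0.59, adjusted p = 0.00627). Both genes passed whichever of the 10 libraries was left out, and also without tumours 1 and 6.

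The ratio of these genes within a library does not depend on the scaling between libraries. Per kilobase of transcript, Slc1a5 was 307, 247, 248 and 100 times as abundant as Slc1a4 in glands 1 to 4. In tumours 1 to 6 the ratio was 7.43, 1.07, 0.453, 2.79, 2.08 and 2.97, and in tumour 3 Slc1a4 was the more abundant. Gland 4, with the lowest Slc1a5 of the glands, was also the gland with the lowest summed fat cell markers, and the part that fat cells have in the fall of Slc1a5 was not tested.

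**Figure D3:**
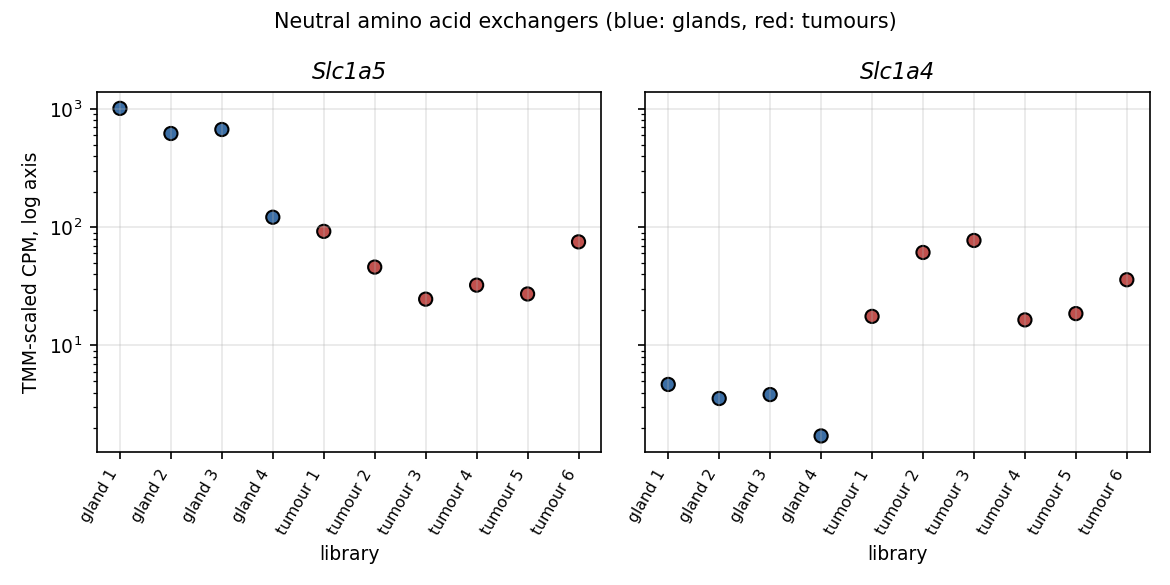
TMM-scaled CPM on a shared log axis of Slc1a5 (left) and Slc1a4 (right) in each of 4 glands (blue) and 6 tumours (red). Slc1a5 is lower in all tumours than in any gland, and Slc1a4 is higher in all of them.

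Among the glutamate carriers, Slc1a1 rose. It encodes EAAC1, which also takes up aspartate and cysteine. The glands held 1.03, 0.921, 0.724 and 1.21 CPM, and the tumours 4.06 to 18.9 CPM with a median of 13.7 CPM. No tumour overlapped a gland, and the log2 fold change of 3.58 ± 0.55 (adjusted p = 0.00453) passed in all 10 fits without a library. The annotation places exons of 4430402I18Rik on the opposite strand, over 31.9% of the exonic bases of Slc1a1, and the sources used here do not state whether strand was used in counting. That gene fell by 2.99 on the log2 scale (adjusted p = 0.00552). Slc1a3, the glial carrier GLAST, was at 144, 108, 111 and 27.2 CPM in glands and 5.66 to 61.6 CPM in tumours (log2 difference -1.83 ± 0.69, adjusted p = 0.0927). Slc1a2, the carrier GLT-1, was low throughout, at 0.0571 to 1.23 CPM in glands and 0.953 to 7.83 CPM in tumours (2.40 ± 0.94, adjusted p = 0.102). Neither passed.

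The heteromeric transporters pair a heavy chain with a light chain that sets the cargo. The heavy chain gene Slc3a2 (CD98) was at 98.6, 84.1, 72.2 and 34.5 CPM in glands 1 to 4 and 40.0 to 240 CPM in tumours, with a median of 160 CPM. Tumours 1, 2, 5 and 6 lay above every gland and tumours 3 and 4 within the gland range, and the log2 difference of 1.05 ± 0.48 did not pass (adjusted p = 0.154). The other heavy chain gene, Slc3a1, had at most 5 counts in any library and was not tested.

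Light chain genes changed in opposite directions. Slc7a5 encodes LAT1, the exchanger of leucine and other large neutral amino acids, and was at 3.54, 11.1, 8.74 and 2.48 CPM in glands. The tumours ranged from 11.2 to 60.2 CPM with a median of 22.1 CPM, and all lay above every gland, though tumour 5 only narrowly. The log2 fold change was 2.15 ± 0.58 (adjusted p = 0.0323). Leaving out gland 1, 3 or 4 ended the call, with an adjusted p of at most 0.101. So did leaving out tumours 1 and 6, which held the highest levels (1.47, adjusted p = 0.0707, and 1.10 without gland 4 as well).

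Slc7a10 encodes Asc-1, a transporter of small neutral amino acids that is known as a surface marker of white fat cells. It was at 128, 69.4, 75.8 and 7.63 CPM in glands 1 to 4. Tumours 3 and 4 had no read, tumours 1, 2 and 5 had 0.137, 0.0908 and 0.112 CPM, and tumour 6 had 2.51 CPM. The fall, -7.21 ± 1.5 on the log2 scale (adjusted p = 0.0129), passed in all 10 fits without a library. Summed fat cell markers were highest among tumours in tumour 6 (1576 CPM), where Slc7a10 was also highest, and lowest among glands in gland 4. Tumour 1 came next among tumours in these markers (987 CPM), while its Slc7a10 was near that of tumours 2 and 5. The part that fat cells have in the fall of Slc7a10 was not tested. Exons of Lrp3 lie opposite 17.9% of the exonic bases of Slc7a10, and Lrp3 fell by 3.19 on the log2 scale (adjusted p = 0.0472).

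The remaining light chains did not pass. Slc7a7 and Slc7a6 exchange cationic for neutral amino acids, and their log2 differences were 1.10 ± 0.65 and 0.19 ± 0.54, at adjusted p = 0.255 and 0.828 (Slc7a7 was at 0.53 without tumour 5). Slc7a8 (LAT2) had a log2 difference of -0.13 ± 0.62 and Slc7a13 of -0.40 ± 0.92 (adjusted p = 0.9 and 0.781), the latter at -1.71 without tumour 1. For Slc7a8, tumours 1 and 6 lay above every gland (16.1 and 16.6 CPM) and tumours 2 to 5 below every gland. Without tumours 1 and 6 its log2 difference was -1.23 (adjusted p = 0.0870).

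Slc7a11 (xCT), which takes up cystine in exchange for glutamate and so feeds glutathione synthesis, was set apart by 1 tumour. Levels were 0.885, 11.4, 9.52 and 2.29 CPM in glands 1 to 4 and 8.36, 4.74, 1.93, 8.53, 938 and 6.30 CPM in tumours 1 to 6. Tumour 5 lay far above every other library, while the other 5 tumours lay within the range of the glands. The log2 difference of 4.74 ± 2.03 did not pass (adjusted p = 0.130), and without tumour 5 it was -0.0066 (adjusted p = 0.996). The promoter of Slc7a11 is shown here because it holds 2 copies of the core of the amino acid response element, TGATGNAA, which the stress factor Atf4 binds. They lie on opposite strands, at -66 and -47 from the start. Atf4 transcripts were at 43.1 CPM in tumour 5, the lowest of the 10 libraries. The part of Atf4 in the level of Slc7a11 was not tested. Sequences are from RefSeq on GRCm38.p6, on the gene's strand, with matches in capitals.
Slc7a11, chr3:50443637-50443695, minus strand: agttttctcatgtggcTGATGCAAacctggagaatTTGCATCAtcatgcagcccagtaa
Slc7a7, chr14:54418062-54418101, minus strand: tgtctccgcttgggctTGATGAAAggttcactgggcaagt

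Promoter windows of 300 bases (250 before and 50 after the start) were at hand for 44 of the 61 genes, 9 of them among the 14 that passed. Both strands were searched, genes with several starts counted once if any window held the motif, and none of the 44 genes held both motifs. TGATGNAA was found in 3 of the 44 genes (6.82%: Slc7a11, Slc7a7 and Slc1a4), against 4.51% of all 27025 genes with a window, and of these Slc1a4 rose. CACGTG, the core of the E-box that Myc and Max bind, was found in 9 (20.5%), against 8.09% of all genes. Of these 9 genes 4 had enough counts to be tested and none passed. Besides Slc1a7 these were Slc36a1 and Slc38a7, which export amino acids from the lysosome, and Slc43a1, whose matches are shown as the expressed holders of this motif.
Slc36a1, chr11:55204293-55204330, plus strand: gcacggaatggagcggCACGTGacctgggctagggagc
Slc38a7, chr8:95853504-95853541, minus strand: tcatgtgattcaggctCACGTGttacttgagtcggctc
Slc43a1, chr2:84840243-84840280, plus strand: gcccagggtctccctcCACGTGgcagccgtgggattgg

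The make-up of the light chains that pair with Slc3a2 was described within each library, as shares of their summed CPM per kilobase over Slc7a5, Slc7a6, Slc7a7, Slc7a8, Slc7a10 and Slc7a11. Slc7a10 held 85.7%, 71.5%, 74.3% and 40.3% of the sum in glands 1 to 4, and it was the leading light chain in each. In tumours its share was at most 4.42%. Slc7a5 held 1.32%, 6.34%, 4.76% and 7.28% in the glands, and in tumours 1 to 6 it held 69.6%, 53.2%, 28.5%, 37.1%, 2.43% and 39.1%. It led in tumours 1, 2, 4 and 6, Slc7a6 led in tumour 3 with 35.0%, and Slc7a11 led in tumour 5 with 77.5%. Slc3a2 itself was 0.459, 0.601, 0.491 and 1.27 times the summed light chains per kilobase in glands, and 2.93, 7.12, 1.91, 0.853, 0.496 and 1.67 times in tumours 1 to 6. The groups overlapped in this ratio.

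**Figure D4:**
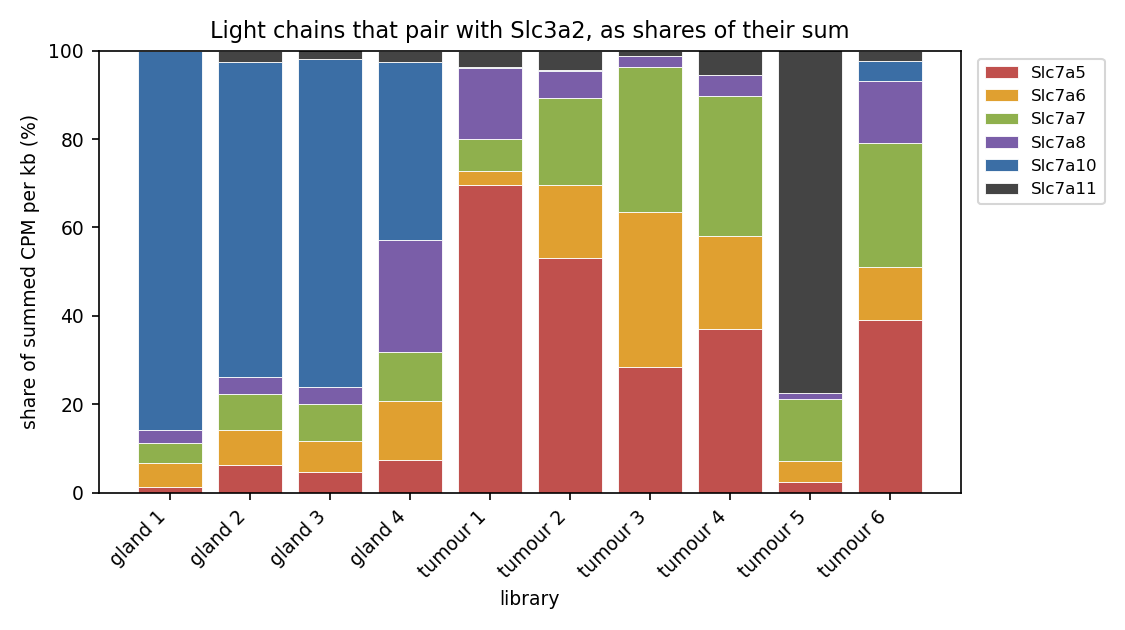
Stacked bars of the share (%) of each of 6 light chain genes in their summed CPM per kilobase, for 4 glands and 6 tumours. Slc7a10 fills 40.3% to 85.7% of each gland bar and at most 4.42% of a tumour bar, while Slc7a11 fills 77.5% of tumour 5.

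Among the genes grouped as cationic transporters, Slc7a2, a carrier of arginine, lysine and ornithine, fell. Its levels were 33.1, 33.0, 21.2 and 50.7 CPM in glands and 3.81 to 23.1 CPM in tumours, with a median of 8.93 CPM. In 5 of 6 tumours it lay below every gland, and tumour 6 lay within their range. The log2 fold change of -1.70 ± 0.47 (adjusted p = 0.0357) missed the threshold in 7 of 10 fits that left out a library, namely gland 1, 2 or 4, or any of tumours 2 to 5, with 0.0822 as the highest adjusted p. Slc7a1, the widely expressed arginine transporter CAT1, was at 5.76, 16.6, 12.2 and 6.68 CPM in glands and 11.5 to 72.2 CPM in tumours (1.35 ± 0.57, adjusted p = 0.124, and 0.70 without tumour 1). Slc7a4 was at 1.88 to 2.22 CPM in glands and 1.93 to 31.5 CPM in tumours (2.15 ± 0.81, adjusted p = 0.0930, and 1.13 without tumour 1). The highest value of both genes was that of tumour 1.

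The Slc38 family of sodium-coupled neutral amino acid transporters had 2 members that rose and 2 that fell of 9 tested. Over all tested genes 6.89% passed as higher and 8.19% as lower, and so small a family allows no reading of the difference. Each of these Slc38 calls missed the threshold in at least 1 fit that left out a library. Slc38a2 (SNAT2), an alanine and glutamine transporter known to be induced when amino acids are scarce, was at 49.5, 70.2, 66.5 and 74.9 CPM in glands. The tumours held 108 to 351 CPM with a median of 127 CPM, and all lay above every gland, with tumours 3 and 5 the highest (307 and 351 CPM). The log2 fold change of 1.53 ± 0.43 (adjusted p = 0.0362) missed the threshold when any gland was left out, and likewise tumour 3 or 5 (0.115 at most).

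Slc38a6 had the widest range among tumours. It was at 37.3, 49.8, 37.4 and 53.4 CPM in glands 1 to 4 and at 61.6, 220, 5979, 492, 529 and 290 CPM in tumours 1 to 6. Tumour 1 lay just above the glands, and tumour 3 held 241748 counts of this gene. The log2 fold change was 4.83 ± 1.30 (adjusted p = 0.0323). Without tumour 3 it was 2.85 (adjusted p = 0.0146), while leaving out any gland ended the call (0.0978 at most). DESeq2 gave no adjusted p for this gene. Of all words of 31 bases in the annotated transcripts of Slc38a6, 40.7% also occur in transcripts of other genes (4386 of them, on either strand), the highest share among the 61 genes, whose median was 0.463%. How such reads were assigned is not stated in the sources at hand, so the values of this gene are uncertain. Among the neighbouring protein-coding genes in RefSeq order, Trmt5 was at 24.7 CPM in tumour 3, against 5.07 to 11.2 CPM in the other libraries, and Mnat1 at 54.8 CPM against 12.9 to 31 CPM. Tmem30b, on the other side, was at 48.6 CPM in tumour 3, 16.9 to 56.6 CPM in the other tumours and 8.26 to 10.3 CPM in glands. Six4 and Prkch, further out, were at 9.99 and 7.05 CPM in tumour 3, within their gland ranges (0.835 to 31.1 and 4.51 to 23.6 CPM). Of these neighbours, Trmt5 and Mnat1 were thus highest in tumour 3, though by far less than Slc38a6, and the others were not.

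**Figure D5:**
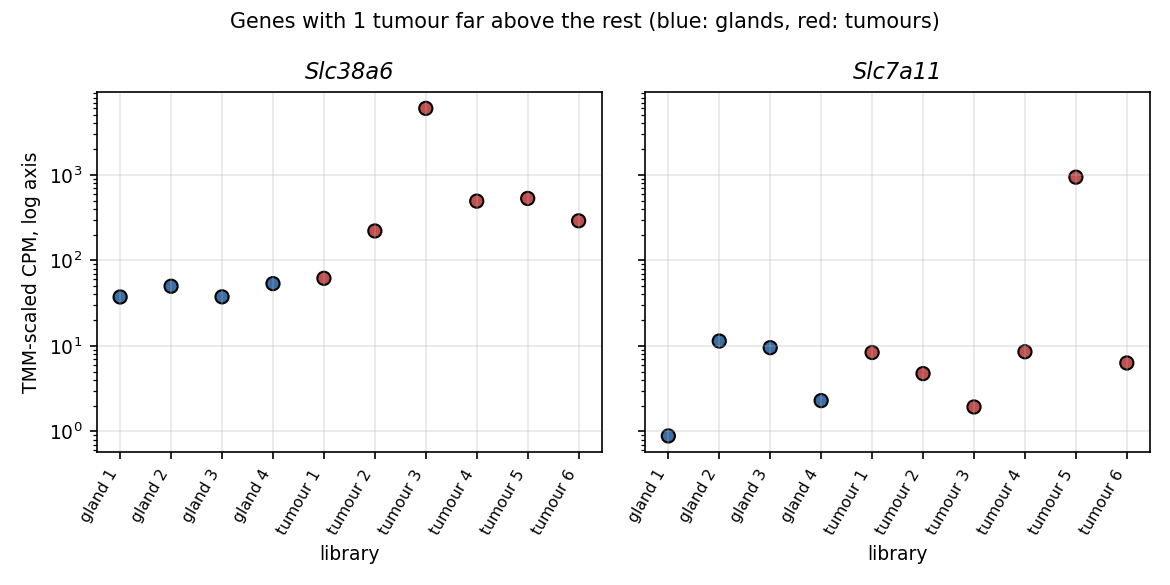
TMM-scaled CPM on a shared log axis of Slc38a6 (left) and Slc7a11 (right) in each of 4 glands (blue) and 6 tumours (red). Tumour 3 reaches 5979 CPM for Slc38a6, and tumour 5 reaches 938 CPM for Slc7a11.

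Slc38a4 (SNAT4), an imprinted transporter of neutral and cationic amino acids, was at 10.2, 7.82, 4.07 and 64.8 CPM in glands 1 to 4 and 0.0247 to 1.90 CPM in tumours, with a median of 0.146 CPM. All tumours lay below every gland (log2 fold change -5.28 ± 1.28, adjusted p = 0.0224). Gland 4, the library with the most skeletal muscle transcripts, was the highest, and without it the value was -3.80 (adjusted p = 0.0606). Slc38a10 was at 135, 101, 88.9 and 34.6 CPM in glands and 24.9 to 62.9 CPM in tumours. Gland 4 lay among the tumours, and the log2 fold change was -1.26 ± 0.38 (adjusted p = 0.0458). It missed the threshold in 8 of 10 fits that left out a library, all but those for gland 4 and tumour 6, with 0.155 as the highest adjusted p. With tumours 1 and 6 and gland 4 left out together it was -1.93.

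The other Slc38 genes did not pass. Slc38a1 (SNAT1), a glutamine transporter, was at 6.54, 27.4, 21.1 and 4.96 CPM in glands and 1.91 to 51.0 CPM in tumours, with tumour 2 below every gland and tumours 1, 4 and 5 above them (1.00 ± 0.76, adjusted p = 0.367, and 0.63 without gland 4). The lysosomal members varied little. Slc38a9, a lysosomal arginine sensor of the growth kinase complex mTORC1, was at 9.85 to 23.1 CPM in glands and 11.5 to 20.6 CPM in tumours (0.07 ± 0.30, adjusted p = 0.882). Slc38a7, which exports glutamine and asparagine from the lysosome, was at 7.25 to 14.2 CPM in glands and 5.28 to 12.3 CPM in tumours (-0.35 ± 0.33, adjusted p = 0.467). For Slc38a3 the log2 difference was -1.02 ± 1.30 (adjusted p = 0.598), and it turned to 1.47 without gland 4, so no direction was read from it. For Slc38a11 it was 1.55 ± 0.92 (adjusted p = 0.251) and 0.42 without tumour 1.

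Of the proton-coupled Slc36 family, Slc36a2 fell. It encodes PAT2, a carrier of glycine, alanine and proline that is known as a surface marker of brown and beige fat cells. It was at 213, 108, 91.3 and 40.8 CPM in glands 1 to 4. Tumours 1 and 6 held 11.2 and 12.7 CPM, and tumours 2 to 5 held 0.0908, 0.0247, 0.589 and 0.484 CPM. All tumours lay below every gland, with a log2 fold change of -4.77 ± 1.39 (adjusted p = 0.0411). It was -8.55 without tumours 1 and 6 (adjusted p = 0.00166), while leaving out any of glands 1 to 3, or tumour 2, 4 or 5, ended the call (0.106 at most). Tumours 1 and 6 also had the highest summed fat cell markers of the tumours, 987 and 1576 CPM against 27.9 to 178 CPM, and their part in the result was not tested. The lysosomal carrier Slc36a1 was at -0.32 ± 0.47 and Slc36a4 at -0.98 ± 0.45 on the log2 scale, and neither passed (adjusted p = 0.654 and 0.154). Without tumours 1 and 6 and gland 4, Slc36a4 passed (-1.49, adjusted p = 0.0459).

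None of the 3 genes of the Slc43 family passed. Slc43a1 (LAT3), a facilitator of leucine and other neutral amino acids, was at 31.2, 20.9, 19.1 and 21.2 CPM in glands. Tumours ranged from 0.363 to 12.1 CPM, all below every gland. Its log2 difference of -2.66 ± 0.87 missed the threshold (adjusted p = 0.0588) and passed without tumour 1 (-3.54, adjusted p = 0.0165) and without tumours 1 and 6. Slc43a3 had a log2 difference of -1.97 ± 0.62 (adjusted p = 0.0539), with 4 of 6 tumours below every gland, and passed without gland 4 or tumour 2. Slc43a2 (LAT4) was at 45.3, 35.5, 31 and 18.1 CPM in glands and 3.46 to 98.8 CPM in tumours, where tumour 6 lay above every gland and 3 tumours lay below them (-0.24 ± 0.79, adjusted p = 0.850, and -1.34 without tumour 6).

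In the Slc6 family of sodium- and chloride-coupled carriers, 2 of 10 tested genes rose and none fell. The shares over all tested genes were 6.89% higher and 8.19% lower, and so small a family allows no reading of the difference. Slc6a14 encodes a broad carrier of neutral and cationic amino acids (ATB0,+). It had 1, 2, 1 and 1 counts in glands 1 to 4 and 168, 43, 403, 494, 86 and 386 counts in tumours 1 to 6. On the CPM scale that was 0.0285 to 0.0636 in glands and 0.651 to 11.5 in tumours, with a median of 9.27 and with tumours 2 and 5 the lowest. Every tumour lay above every gland, and the log2 fold change of 7.36 ± 1.06 (adjusted p = 0.00374) was the largest of the 44 genes. Since so few gland reads stand behind it, its size depends on the small count that the fit adds. The gene passed whichever library was left out, and without tumours 1 and 6.

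Slc6a15 encodes a carrier of branched-chain amino acids and proline (B0AT2). It was at 0.285, 0.312, 0.278 and 0.509 CPM in glands and at 2.33, 2.19, 65.0, 19.2, 2.70 and 2.82 CPM in tumours 1 to 6. All tumours were above the glands, and tumours 3 and 4 stood above the other tumours. The log2 fold change was 5.51 ± 1.29 (adjusted p = 0.0198), and leaving out any of glands 1 to 3 ended the call (0.0671 at most). Tumour 3, the highest for Slc6a15 and Slc38a6, also had the highest Slc1a4 (77.2 CPM) and Slc1a1 (18.9 CPM). In summed luminal epithelial markers tumour 3 was the highest tumour too, at 4084 CPM, and their part in these levels was not tested. These ranks of tumour 3 depend on the scaling between libraries. As a share of all counts its luminal markers (0.363%) were below those of tumours 2 and 4 (0.449% and 0.448%). Before scaling, tumour 2 held 4041 counts of Slc1a4 and 867 of Slc1a1, of 48325044 in all. Tumour 3 held 3122 and 763, of 45505300.

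Among the other Slc6 genes, the taurine carrier Slc6a6 was at 132, 90.5, 69.3 and 48.8 CPM in glands and ranged from 20.3 to 144 CPM in tumours, with tumour 2 alone above every gland (-0.67 ± 0.53, adjusted p = 0.385, and -1.25 without tumour 2). The creatine carrier Slc6a8 was at 8.13 to 20.6 CPM in glands 1 to 3, 68.5 CPM in gland 4 and 16.1 to 40.2 CPM in tumours (0.16 ± 0.56, adjusted p = 0.855). Its log2 difference was 1.12 without gland 4 (adjusted p = 0.106), and -0.10 and -0.14 without gland 2 and gland 3. Slc6a12, a betaine and GABA carrier with few reads, had a log2 difference of -2.52 ± 1.16 (adjusted p = 0.153). It passed without tumours 1 and 6 and gland 4 (-4.14, adjusted p = 0.0429). Slc6a2, Slc6a4, Slc6a9 and Slc6a19 had log2 differences of 0.40 to 2.44 and none passed. For Slc6a4 the value of 0.40 turned to -1.58 without tumour 5, for Slc6a19 the value of 2.44 was 1.04 without tumour 3, for Slc6a2 the value of 1.5 was 0.67 without tumour 2, and for Slc6a9 the value of 0.67 was 0.19 without tumour 1.

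The mitochondrial glutamate carrier gene Slc25a22 fell. It was at 70.3, 37.3, 33.7 and 7.12 CPM in glands 1 to 4 and 1.68 to 10.8 CPM in tumours, with a median of 4.41 CPM. Glands 1 to 3 lay above every tumour, while gland 4 lay below tumours 1 and 6. The log2 fold change of -2.78 ± 0.65 (adjusted p = 0.0200) missed the threshold without gland 1 (adjusted p = 0.0710). The lysosomal exporter of cationic amino acids, Slc66a1, was at 3.43 to 5.31 CPM in glands and 3.29 to 5.69 CPM in tumours (0.10 ± 0.34, adjusted p = 0.848).

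The 17 genes that were not tested had at most 64 counts in any library, and 11 of them at most 11. They were Slc1a6, Slc3a1, Slc6a3, Slc6a5, Slc6a7, Slc6a11, Slc6a13, Slc6a16, Slc6a17, Slc6a18, Slc7a3, Slc7a9, Slc7a14, Slc7a15, Slc36a3, Slc38a5 and Slc38a8. Several of these are best known from brain, kidney or gut. Slc6a13 had enough counts to be tested in the fit without tumours 1 and 6 and gland 4, where it was among the 13 genes that passed as lower.

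Levels of different genes were compared per kilobase of the longest annotated coding transcript. In the glands the highest median was that of Slc1a5, at 233 CPM per kb, followed by Slc36a2 (41.0), Slc7a10 (37.2), Slc3a2 (27.8) and Slc1a3 (26.3). Neighbours in this order had overlapping ranges, though Slc1a5 was the highest within each of the 4 glands. In the tumours Slc38a6 had the highest median, at 99.5 CPM per kb with the limit given above, followed by Slc3a2 (56.8), Slc38a2 (27.4), Slc1a5 (14.2) and Slc6a8 (8.71). The ranges of neighbours in this order overlapped as well. Slc36a2 and Slc7a10, in the second and the third place in glands, stood at the 34th and the 43rd place of 61 in tumours.

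Genes that use or sense amino acids were examined beside the transporters. Of 20 genes of branched-chain amino acid breakdown 15 fell and none rose (median log2 fold change -1.69, against 0.17 over all genes tested, of which 8.19% were called lower). Ivd, which acts on the leucine branch, fell by 3.08 on the log2 scale, from 306, 182, 184 and 94.7 CPM in glands to 16.5 to 38.2 CPM in tumours (adjusted p = 0.00176). Mccc1, also of the leucine branch, fell by 2.79 and Hibch, of the valine branch, by 2.24 (adjusted p = 0.00353 and 0.00405), and these 3 calls held in all 10 fits without a library. All 13 fat cell markers fell in the same comparison, and their part in these changes was not tested.

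Of 14 genes of glutamine and glutamate metabolism, Gls2 rose and Gpt, Glul and Glud1 fell (median -0.75), where 6.89% of all tested genes passed as higher and 8.19% as lower. Glul, which makes glutamine, was at 2326, 1539, 1262 and 710 CPM in glands and 15.5 to 311 CPM in tumours (-3.17 ± 0.69, adjusted p = 0.0152). Gpt, an alanine aminotransferase, changed by -4.16 ± 0.66, and Glud1, glutamate dehydrogenase, by -1.21 ± 0.29 (adjusted p = 0.00467 and 0.0219), the latter missing the threshold without gland 1 or gland 2 (0.0801 at most). The liver-type glutaminase Gls2 changed by 3.34 ± 0.72 (adjusted p = 0.0152), from 0.111 to 0.428 CPM in glands to 0.754 to 5.81 CPM in tumours, and was not called without gland 2 (adjusted p = 0.0519).

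Of 22 genes of the amino acid stress response 2 rose and 4 fell (median 0.14), against the same shares of 6.89% and 8.19%. The proline synthesis gene Aldh18a1 and the serine hydroxymethyltransferase gene Shmt2 rose by 1.59 and 0.84 on the log2 scale, at adjusted p = 0.0328 and 0.0329. Leaving out any gland, or tumour 6, or tumours 1 and 6, ended both calls, with 0.0926 and 0.0958 at most in fits that left out a single library. Aldh18a1 was at 0.77 without tumours 1 and 6 and gland 4. Stc2, a secreted glycoprotein, changed by -3.43, the lipoprotein receptor gene Vldlr by -2.24 and Cth, which makes cysteine, by -1.91 (adjusted p = 0.00539, 0.0118 and 0.0227), the last not without gland 1 (adjusted p = 0.0756). Atf4 had a log2 difference of 0.32 ± 0.39 and Asns, asparagine synthetase, of 0.76 ± 0.84 (adjusted p = 0.572 and 0.537).

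Of 28 tested genes of amino acid sensing by mTORC1 5 fell and none rose (median -0.52, with 8.19% of all tested genes called lower). Fnip1 and Flcn, partners in a complex that acts on the Rag GTPases, changed by -1.14 and -1.06, and the kinase gene Mtor by -0.94 (adjusted p = 0.0132, 0.0306 and 0.0273). The Fnip1 call held in all 10 fits without a library, while Flcn missed the threshold in 5 of them (those for glands 1, 2 and 4 and tumours 2 and 4) and Mtor in 4 (glands 1 and 2, tumours 4 and 5), at 0.0881 and 0.0972 at most. Of 15 tested genes of arginine and polyamine metabolism 2 rose and 2 fell (median 0.52), against 6.89% higher and 8.19% lower of all tested genes. The nitric oxide synthase genes Nos3 and Nos2 changed by -4.36 and -2.66 (adjusted p = 0.00877 and 0.0312), and Sat1, of polyamine breakdown, and Arg1, arginase, by 1.64 and 2.85 (adjusted p = 0.0380 and 0.0490). All but Nos3 lost the call in 6 or 7 of the 10 fits without a library, among them those for glands 1 to 3 (0.118 at most), and Arg1 was at 1.68 without tumours 1 and 6. Of 20 cytosolic aminoacyl-tRNA synthetases, Qars rose (0.93 ± 0.28, adjusted p = 0.0477), while 6.89% of all tested genes were called higher. Of the 10 fits that left out a single library, the call held in that for tumour 1 and missed the threshold in the others (0.141 at most), and the median of the list was 0.15.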

How the data were processed

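Polyadenylated RNA of 10 libraries was sequenced. The values are whole-number counts for each gene symbol, as deposited by the authors. The submitters' processing notes list Salmon 1.2.0, DESeq and the mm9 build, with no role for each. How reads shared by similar genes were assigned is not stated there. The 3 epithelium samples of the 13 in the series were not analysed here.

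The test was the quasi-likelihood F test of edgeR 4.0.16 (R 4.3.3) with filterByExpr defaults and TMM factors (0.422 to 1.41), two-sided, 6 tumours against 4 glands, with no covariate. Benjamini-Hochberg adjustment ran over 20101 genes, with 0.05 as the threshold. The SE was obtained from the log2 fold change and the F statistic. On simulated data for this contrast (19612 genes tested), edgeR found 0 of 67 genes with a 2-fold change, 10 of 67 with a 4-fold change and 37 of 66 with an 8-fold change, and made 4 false calls. DESeq2 1.42.0 found 2, 35 and 52 and made 49 false calls. No label states that each library is a separate animal, so the p-values describe spread among libraries, which may be technical.

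Members, lists and tests were chosen with earlier results of these data known. The genes to be named were every transporter that passed, 14 well-known ones whatever their test, the largest difference among those that did not pass in each role group, and up to 3 called genes a direction from each related list. The other transporters were added to account for all of them. Atf4, Asns, the neighbours and the genes on opposite strands were named after their values were seen. Alternatives were RLE and upper-quartile factors, DESeq2, limma-voom (limma 3.58.1), no filter, a filter of 1 CPM in 4 libraries, age as a covariate, and leaving out libraries. Transcript lengths, overlaps and 31-base words come from GENCODE M21 (GRCm38), matched by gene name, and promoter windows from RefSeq (GRCm38.p6). No coordinate of the deposited files was used. Values of some genes are not reported here.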

Additional observations from a re-analysis of the deposited data

Results flagged for a closer look

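In each of 43 of the tested genes the highest and the lowest library of each group were compared with the rest by Dixon's test. Of these 86 groups 18 had a library far from the others. Chance gives about 1 in 20 groups where values are normally distributed, but the test ran on CPM that were not logged, and the library was the highest of its group in all 18, so that rate does not apply directly to these counts. Tumour 1 was the library in 5 of them, gland 4 in 3, tumour 3 in 3, tumours 2, 5 and 6 in 2 each and gland 1 in 1.

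Tumour 1 was far above the other tumours for Slc7a1 (72.2 CPM, next 23.1), Slc7a4 (31.5, next 9.73), Slc38a11 (2.74, next 0.503), Slc7a13 (2.40, next 0.307) and Slc1a7 (1.92, next 0.607). Salivary gland markers took 51.5% of its counts, and its TMM factor was 0.422.

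Tumour 3 stood out for Slc38a6 (5980 CPM, next 529), Slc6a15 (65.0, next 19.2) and Slc6a19 (5.32, next 0.754), and tumour 5 for Slc7a11 (938, next 8.53) and the serotonin carrier Slc6a4 (11.9, next 2.19). Tumour 2 was highest for Slc6a6 (144, next 54.1) and the noradrenaline carrier Slc6a2 (3.27, next 1.2). Tumour 6 was highest for Slc43a2 (98.8, next 26.1) and Slc7a10 (2.51, next 0.137).

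Gland 4 was far above the other glands for Slc38a4 (64.8, next 10.2) and Slc38a3 (31.7, next 3.08). It was also flagged for Slc6a15 (0.509, next 0.312), a small difference that rests on 8 counts, against 10, 20 and 5 in glands 1 to 3. It held 8.34% skeletal muscle markers among its counts. Gland 1 was above the others for the glycine carrier Slc6a9 (2.85, next 1.73).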

How the results depend on the processing

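Slc1a1, Slc1a4, Slc1a5, Slc6a14 and Slc7a10 passed under all 19 alternatives, and the other 9 transporters that passed missed the threshold in at least 1 fit that left out a library. Of the 14, 13 passed in DESeq2, which added 6 others (Slc1a2, Slc1a3, Slc6a19, Slc7a4, Slc43a1 and Slc43a3). Together these were 9 higher and 10 lower of 42, where 26.8% of all tested genes passed. In limma-voom 12 of the 14 passed, where 15.3% of all tested genes did, and Slc1a3, Slc43a1 and Slc6a12 were added. All 14 passed under RLE factors (15% of all tested genes) and the stricter filter (18.6%), and 13 under upper-quartile factors (15.5%). Unfiltered counts gave 12 of them, where 6.46% of all genes passed. Once age entered the model, 9 of them passed, where 9.45% of all tested genes did. Those lost to the age term were Slc25a22, Slc38a2, Slc38a6, Slc38a10 and Slc7a2.

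Over all genes 3030 passed, and 5252 did in DESeq2, 1899 with age as a covariate and 4640 without tumours 1 and 6 and gland 4. Of the related lists 35 genes passed, and 23 did with no filter and 23 with age. The number of transporters lower in tumours was 4 with age and 13 without tumours 1 and 6 and gland 4. Leaving out 1 library gave 1053 to 3521 genes in all, 14 to 40 of the related lists, 3 to 7 transporters higher and 3 to 7 lower, each lowest without gland 1 (3 higher also without gland 3).

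Of 43 tested transporters examined, 10 changed sign under at least 1 alternative, none of them among those that passed (Slc7a11, Slc38a9, Slc66a1, Slc43a2, Slc38a3, Slc6a4, Slc6a8, Slc6a9, Slc7a6 and Slc7a8). Slc7a11 was at -0.022 with age and from -0.0066 (without tumour 5) to 5.25 when a library was left out, Slc38a9 from -0.093 to 0.28, and Slc66a1 from -0.031 to 0.25 and at -0.11 without tumours 1 and 6 and gland 4. Slc43a2 was at 0.013 with age. The causes were not tested. No paired analysis was possible because the labels give tumours and glands no shared replicate numbers.

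With the spread among these libraries, few genes changed 4-fold and none changed 2-fold were recovered on simulated data. A far smaller share of genes was changed there than the 15.1% that passed here, which makes the adjusted threshold stricter. The simulation therefore cannot tell which differences of the transporters were within reach. In the data, Shmt2 passed at a log2 fold change of 0.84.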
